A study of Mus musculus with 4 samples.

Results

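The interferon regulatory factors, here Irf1, Irf2, Irf3, Irf4, Irf5, Irf7, Irf8 and Irf9, were followed in EPH-4 mouse mammary epithelial cells depleted of the glucocorticoid receptor (GR). These 8 genes, of 28146 gene names on the array, were represented by 12 probes of 41174, found by the gene name given for each probe. Every probe is described. There were 2 stable lines with 2 arrays each. EV-50 carried the empty H1-2 vector and served as the control, and shGR-19 carried a short hairpin RNA against GR, which its label gives as depleted. Both lines were single puromycin-selected clones of EPH-4, grown without serum in DMEM/F-12 with 2 µg/ml puromycin and without added glucocorticoid, so that the receptor had no ligand. For each array 300 ng RNA was labelled with Cy3. The sources do not say whether the duplicates were separate cultures, so the errors below cover the spread between arrays, which may be technical, and not the spread between clones. The comparison asks which of these genes differ between the clone depleted of unliganded GR and the control clone. As each line was a single clone, GR depletion and a difference between clones cannot be told apart.

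Interferon regulatory factors are transcription factors that share a DNA-binding domain with a conserved cluster of tryptophans, and bind repeats of GAAA. IRF3 and IRF7 are phosphorylated by the kinases TBK1 and IKKε when a cell senses viral nucleic acid, and then turn on interferon genes. Secreted interferon acts through its receptor to assemble the complex ISGF3, of which IRF9 is the DNA-binding subunit and which binds the interferon-stimulated response element and induces antiviral genes, Irf7 among them. IRF1 is induced by interferon gamma and activates genes of antigen processing, IRF2 competes with it for the same sites, IRF5 acts behind Toll-like receptors, and IRF4 and IRF8 are best known from lymphoid and myeloid cells.

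The array reads each gene through probes of 60 bases. Of the 12 probes, 3 covered more of the genome than their own length and so cross at least 1 exon junction, which makes them read spliced RNA. These 3 are shown because 1 of them is the only probe of Irf7, the gene with the largest difference among the members, and because the other two are the second probes of Irf9 and Irf1. They are given 5′ to 3′ with no base marked, with coordinates of mm9, the build of the probe annotation.
Irf7 probe A_51_P421876 (chr7:148450664-148451014): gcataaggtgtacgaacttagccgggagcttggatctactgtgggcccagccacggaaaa
Irf9 probe A_52_P176013 (chr14:56224980-56225190): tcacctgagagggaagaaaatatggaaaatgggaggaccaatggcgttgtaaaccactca
Irf1 probe A_52_P175685 (chr11:53587446-53587591): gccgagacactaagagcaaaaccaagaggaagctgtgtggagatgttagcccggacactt
The other 9 probes matched unbroken stretches of 60 bases. For Irf9 this was chr14:56228256-56228315, for Irf1 chr11:53590715-53590774, for Irf2 chr8:47932486-47932545, for Irf4 chr13:30858459-30858518 and for Irf5 chr6:29486901-29486960. Irf3 had probes at chr7:52257673-52257732 and chr7:52253377-52253436, and Irf8 at chr8:123279889-123279948 and chr8:123280324-123280383. Whether these stretches lie in coding sequence or in a UTR was not annotated here.

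Values of the same 4 samples came from a pair of sources. The scanner files hold background-subtracted intensities, used here as log2 signal relative to each array's 75th percentile, so that 0 is a bright gene and negative values are dimmer. The deposited value table holds log2 values made by the authors in GeneSpring, in which each probe's median over the arrays is 0. A probe was kept when either line had it well above background on both of its arrays, and was called at more than a 2-fold difference with an adjusted p below 0.01 (limma, Benjamini-Hochberg over all 24436 kept probes). All 4 arrays were on 1 slide and read in 1 scan, and 23290 to 27358 spots per array were well above background.

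The sources differed in the arrays labelled replicate 1. Over the 21173 probes well above background on all 4 arrays, shGR-19 minus EV-50 between the arrays labelled replicate 2 correlated across probes at 0.883 with the same difference in the value table, but between those labelled replicate 1 at 0.055. In the scanner files the replicate 1 arrays of both lines were alike (SD of the difference over probes 0.225, against 0.532 for the same columns of the table). Nr3c1, the gene of GR, followed the same division. On its brightest probe, A_52_P138090, the scanner value was 1.81 and 1.92 in EV-50 replicates 1 and 2, and 1.46 and -0.03 in shGR-19 replicates 1 and 2. The array labelled shGR-19 replicate 2 was thus the low one. In the value table the same probe was lower in both shGR-19 columns, by 1.94 on the log2 scale (SE 0.048, adjusted p = 0.00215, limma), and the other 3 probes of Nr3c1 differed by -1.41 to -1.72. Whether the scanner files labelled replicate 1 hold the samples that their labels name could not be settled here, and this bears on every scanner mean, SE and value with an array left out. The kept member probes are therefore given from both sources, while some genes of the lists below are given from the value table alone. Why the sources differ was not tested.

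Among the 9 kept probes, 3 were called in the value table: Irf7 and Irf9 were lower in shGR-19 and 1 of the 2 probes of Irf8 was higher. The Irf8 probe passed the background filter through shGR-19 alone, the line in which it was high, and when a probe had to be above background on each of the 4 arrays there were 2 calls, Irf7 and Irf9. Among all 24436 kept probes 2.39% were called lower and 1.87% higher. No further member probe passed the adjusted p at a smaller fold, a rule by which 6.04% of all kept probes were lower and 5.53% higher. In the scanner files none of the 9 was called, where the share called over all probes was 0% as well (smallest adjusted p 0.931, limma; 209 probes had an unadjusted p below 0.05). Both probes of Irf1 and of Irf3, and the probe of Irf2, were not called in either source. The calls in the value table depended on having both columns of each line. With any 1 of the 4 left out, the differences of Irf7, Irf9 and Irf8 moved little but none was called. That loss was not particular to these genes, as no other kept probe was called either. Kept without the background filter, only Irf7 of the members stayed past the threshold (adjusted p = 0.0089, with Irf9 at 0.0146 and the Irf8 probe at 0.0148, limma). In that fit 28 of all 41163 probes were called lower and 15 higher. The other 3 probes, of Irf4, Irf5 and the second of Irf9, did not pass the background filter and are given as values. For the second probe of Irf9 the fit with all probes kept is given as well.

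**Figure D1:**
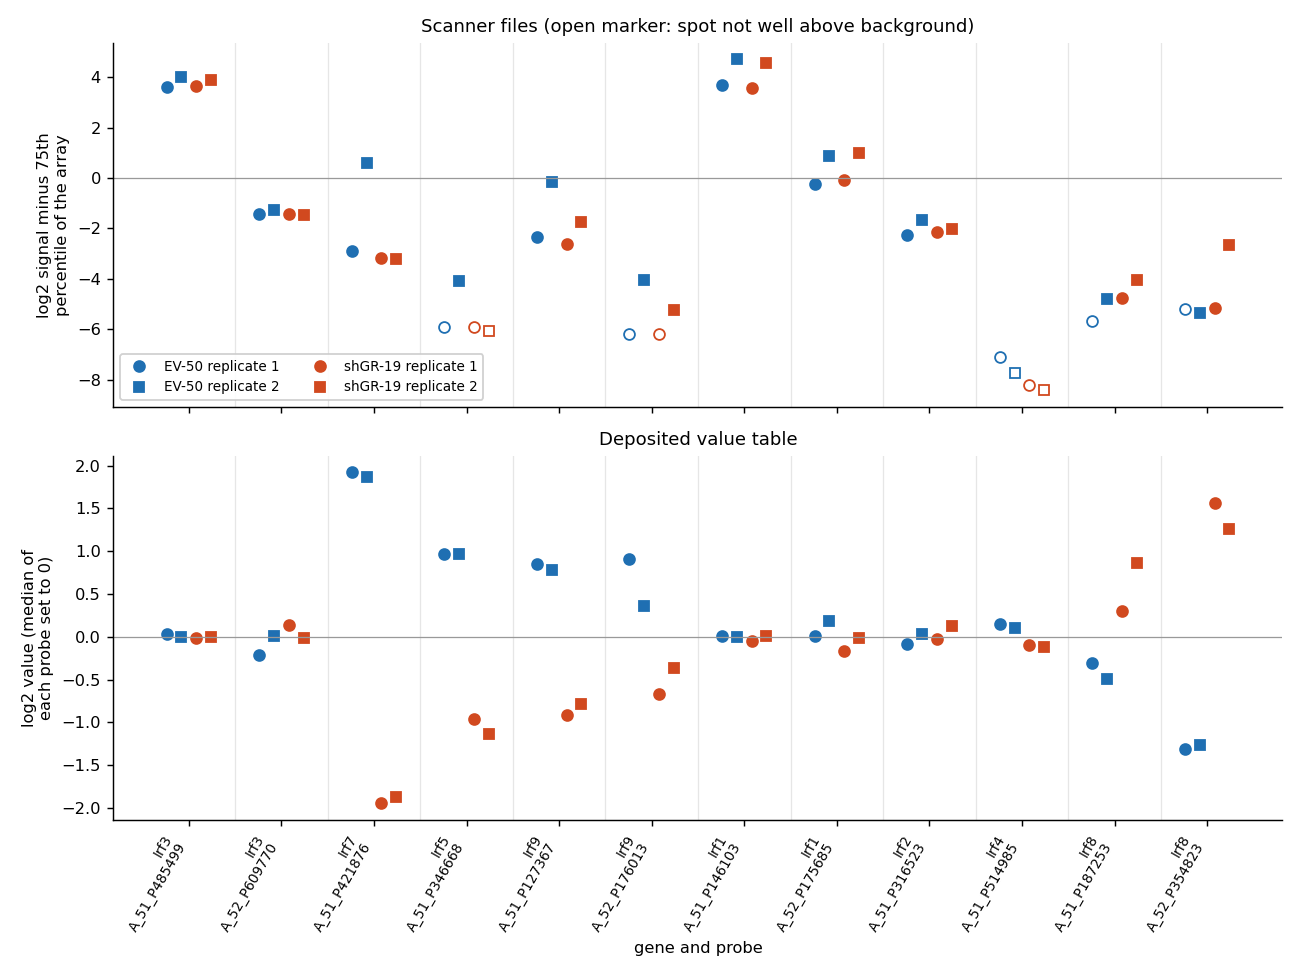
Values of the 12 probes on each array. The upper panel shows the scanner files, as log2 signal relative to each array's 75th percentile, with open markers where the spot was not well above background, and the lower panel the log2 values of the deposited table; blue is EV-50, red is shGR-19, circles are replicate 1 and squares replicate 2. Irf7, Irf5 and Irf9 were highest on the EV-50 replicate 2 array in the scanner files, and high in both EV-50 columns of the table.

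The factors that start interferon production were IRF3, IRF7 and IRF5. Irf3, whose protein is present before any infection, was steady. Its probe A_51_P485499 read 3.59 and 3.98 in EV-50 and 3.63 and 3.89 in shGR-19 on the scanner scale. The lines overlapped fully. The difference was -0.03 (SE 0.26) in the scanner files and -0.02 in the value table (95% interval -0.16 to 0.12, adjusted p = 0.743, limma). The other probe of Irf3, A_52_P609770, read -1.42 and -1.28 in EV-50 and -1.42 and -1.45 in shGR-19, and its difference in the value table was 0.16 (95% interval -0.17 to 0.49). For both probes the interval in the value table left out a 2-fold difference in either direction.

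Irf7, a family member that interferon itself induces, showed the largest difference of the 8 genes. Its probe was well above background on all 4 arrays. The scanner values were -2.91 and 0.58 in EV-50 replicates 1 and 2, and -3.18 and -3.19 in shGR-19. The array labelled EV-50 replicate 2 stood far above the other three, while EV-50 replicate 1 lay close to shGR-19. Replicate 2 of shGR-19 was thus at -3.78 relative to replicate 2 of EV-50, and replicate 1 at -0.27 relative to its counterpart. The mean difference of -2.02 had an SE of 1.2, so that the spread between the EV-50 arrays was larger than the difference. Without EV-50 replicate 2 the scanner difference was -0.28, and without EV-50 replicate 1 it was -3.77. In the value table the columns were 1.92 and 1.87 in EV-50 and -1.94 and -1.87 in shGR-19. There the lines did not overlap, and Irf7 was 13.9-fold lower in shGR-19 (log2 difference -3.80, SE 0.058, adjusted p = 0.0013, limma).

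Irf5, which carries signals from Toll-like receptors through MyD88, was near the limit of detection. Its probe was well above background on 1 array only, EV-50 replicate 2, at -4.06, against -5.91 for EV-50 replicate 1 and -5.91 and -6.08 for shGR-19. The measured mean of EV-50 was 2.01-fold above that of shGR-19. This ratio rests on that 1 array and is not a bound, since the other spots were not well above background. The value table gave 0.96 and 0.97 in EV-50 and -0.96 and -1.14 in shGR-19, in which the shGR-19 columns and the first EV-50 column belong to samples whose scanner spot was not well above background, so that no fold or test is taken from them.

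Irf9 was lower in shGR-19 by its main probe. Probe A_51_P127367 was well above background on all arrays and read -2.36 and -0.16 in EV-50 and -2.63 and -1.75 in shGR-19. Both replicate 2 arrays were above both replicate 1 arrays, and within each number shGR-19 was the lower. The difference was -1.58 between the replicate 2 arrays and -0.27 between the replicate 1 arrays, with a mean of -0.93 (SE 0.83), which reversed to 0.17 without EV-50 replicate 2. In the value table the columns were 0.85 and 0.78 in EV-50 and -0.91 and -0.78 in shGR-19, a 3.17-fold decrease (log2 difference -1.66, SE 0.071, adjusted p = 0.0033, limma). The junction-crossing probe of Irf9 was well above background on the replicate 2 arrays only. It read -6.20 and -4.03 in EV-50 and -6.17 and -5.23 in shGR-19, and -1.15 (SE 0.25) between the lines in the value table, the same direction as the main probe with an adjusted p of 0.0897 when all probes were kept (limma).

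IRF1 and IRF2 oppose each other on shared sites, and neither gene was called. Irf1 was bright. Probe A_51_P146103 read 3.68 and 4.71 in EV-50 and 3.58 and 4.56 in shGR-19, and the junction-crossing probe A_52_P175685 read -0.24 and 0.87 in EV-50 and -0.09 and 0.98 in shGR-19. Both probes were higher on the replicate 2 array than on the replicate 1 array of the same line, by 0.98 to 1.11, and the lines overlapped. Within a replicate number the lines differed by -0.10 and -0.15 on the first probe and by 0.15 and 0.11 on the second. In the value table the first probe had no such step (-0.02 in EV-50 and 0.06 in shGR-19), and that of the second was smaller, 0.17 in EV-50 and 0.15 in shGR-19, about the size of its difference between the lines. There shGR-19 differed from EV-50 by -0.03 on the first probe (95% interval -0.17 to 0.12, adjusted p = 0.728, limma) and by -0.18 on the second (95% interval -0.47 to 0.10, adjusted p = 0.227). Irf2 was dimmer, at -2.27 and -1.68 in EV-50 and -2.15 and -2.02 in shGR-19, so that shGR-19 lay inside the range of EV-50. Its difference in the value table was 0.08 (95% interval -0.17 to 0.33, adjusted p = 0.532, limma). The intervals of Irf1 and Irf2 in the value table left out a 2-fold difference, whereas those from the scanner files reached -1.53 to 1.27 for the bright probe of Irf1 and -0.88 to 0.66 for Irf2.

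Of the factors of lymphoid and myeloid cells, Irf4 was not well above background on any array, and its columns in the value table lay between -0.11 and 0.15. Irf8 was dim but measured. Both of its probes were well above background on 3 arrays, all but EV-50 replicate 1, and so entered the fit through shGR-19 alone. Probe A_52_P354823 read -5.19 and -5.34 in EV-50 and -5.15 and -2.65 in shGR-19. Only the array labelled shGR-19 replicate 2 stood out, by 2.69 over the EV-50 array of the same number, against 0.04 for replicate 1. This probe was 6.49-fold higher in shGR-19 in the value table (log2 difference 2.70, SE 0.13, adjusted p = 0.0035, limma), with -1.31 and -1.26 in EV-50 and 1.57 and 1.26 in shGR-19. The level in EV-50 was measured on 1 of 2 arrays, so that this fold rests on a partly unmeasured level, and the probe had no fit when all 4 arrays had to be above background. The other probe, A_51_P187253, read -5.65 and -4.81 in EV-50 and -4.74 and -4.05 in shGR-19. It differed by 0.98 in the value table (SE 0.22, adjusted p = 0.0450, limma), the same direction without a call. Both probes are annotated to the same transcript. That their differences are unequal in size was not tested. With 1 array left out the scanner difference of A_52_P354823 ranged from 0.11 without shGR-19 replicate 2 to 2.62 without shGR-19 replicate 1, and that of A_51_P187253 from 0.42 to 1.26. With normexp background correction the scanner differences of the 2 probes shrank from 1.37 and 0.84 to 0.54 and 0.12.

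**Figure D2:**
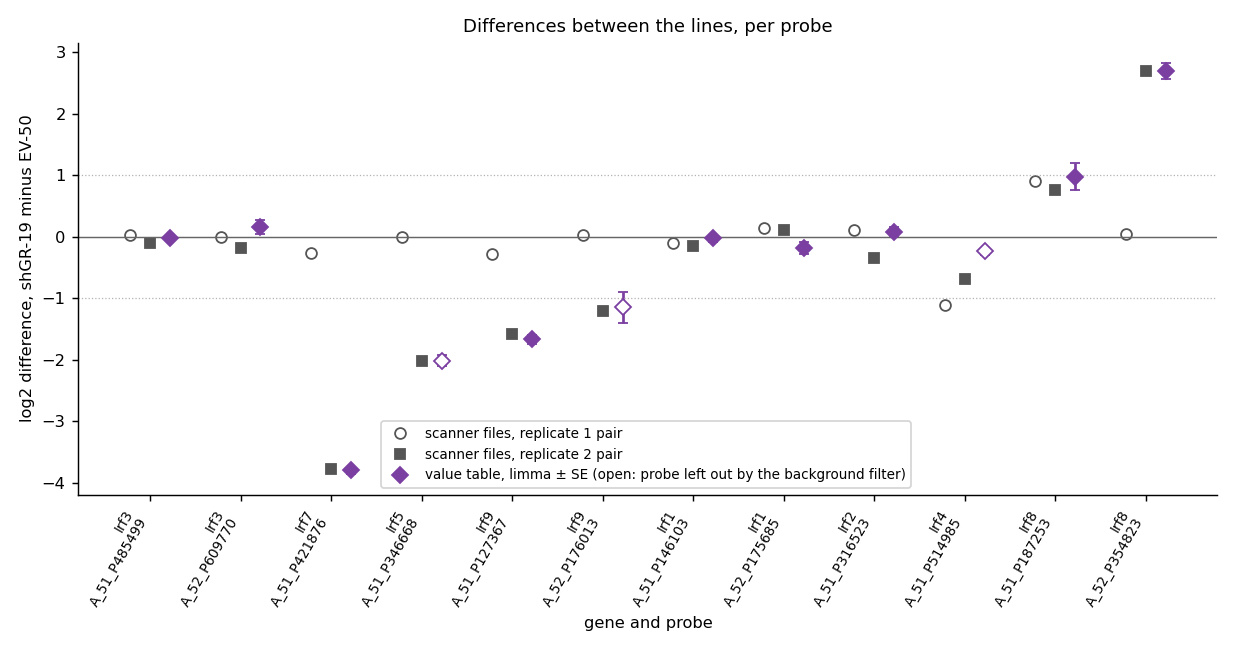
Log2 difference of shGR-19 minus EV-50 for each probe. Open circles are the scanner arrays labelled replicate 1, squares those labelled replicate 2, and diamonds the value table with the limma SE, open where the probe was left out by the background filter (its SE is then that of the fit with all probes kept); dotted lines mark 2-fold. The squares and diamonds lay close together for Irf7 at -3.78 and -3.80, while its circle was at -0.27.

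Markers of other cell types were read on the same arrays. Of 18 markers of blood cells 16 were on the array, and 4 of them were well above background on no array: Ptprc, the pan-leukocyte antigen CD45, Itgam, Emr1 and Ikzf1. Their part in the Irf8 result was not tested. The summed signal of the 16, each relative to the 75th percentile, was 1.70 to 2.23 in EV-50 and 1.46 to 2.12 in shGR-19. None of the 10 that were kept was called, and their median difference in the value table was -0.12. Below 2-fold, Lyz2, which encodes lysozyme, was higher by 0.76 (adjusted p = 0.00676, limma) and Batf3, a factor of dendritic cells, differed by -0.50 (adjusted p = 0.00808). In the scanner files Lyz2 differed by -0.04 (SE 1.01) and Batf3 by -0.34 (SE 0.54). The 10 epithelial markers on the array summed to 844 to 984 in EV-50 and 796 to 1019 in shGR-19, with 9 well above background on all arrays and 0 of 9 kept genes called. Of 8 mesenchymal markers 5 were kept and 4 were called higher in shGR-19 in the value table, beside 1.87% of all kept probes. These were Col1a2, a collagen chain, by 3.27, the platelet-derived growth factor receptors Pdgfrb by 2.03 and Pdgfra by 1.16, and Vim, the filament protein vimentin, by 1.82. Acta2, the other kept marker, differed by -0.17 (adjusted p = 0.123, limma). Pdgfra was well above background on 3 arrays only. In the scanner files none of these markers was called. There the median of the kept markers was 0.20 between the replicate 1 arrays and 2.02 between the replicate 2 arrays. The summed signal of the 8 was 17.0 and 22.8 in EV-50 and 18.1 and 64.2 in shGR-19. The 4 called markers were higher in the same line as Irf8, and their part in its result was not tested either. In RNA of a whole culture, more cells of a kind and more RNA per cell cannot be told apart.

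The genes around the factors were described with 6 lists of 103 genes in all, of which 82 had a kept probe and 1 probe per gene was used. Of these, 20 were called lower in shGR-19 and 1 higher on the values of the table, and none in the scanner files. Over all kept probes the shares called were 2.39% lower and 1.87% higher. The median difference over the 82 genes was -0.35 in the value table and -0.17 in the scanner files, beside 0.01 and 0.02 over all kept probes. Between the replicate 1 arrays the median of the 82 was -0.04, and between the replicate 2 arrays -0.37. The calls were lost with any 1 column left out, as were those of every other kept probe. They were also lost with all probes kept, a fit in which 28 of 41163 probes were called lower and 15 higher.

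Upstream of the factors, 18 of 20 sensors, adaptors and kinases that lead to IRF3 and IRF7 were kept, and 1 was called. This was Zbp1, a cytosolic nucleic acid sensor and itself an interferon-induced gene, at -3.63 (SE 0.27, adjusted p = 0.00615, limma). On the scanner arrays Zbp1 read -4.27 and 0.53 in EV-50 and -4.27 and -3.82 in shGR-19, so that, as for Irf7, EV-50 replicate 2 stood alone. The median of the list was -0.21. Of 18 interferon genes 11 were on the array and 7 were kept, and 0 of these were called in either source, with a median of -0.04 in the value table. Of the receptors, JAK kinases and STAT proteins all 11 were kept and 1 was called, Stat2, the partner of IRF9 in ISGF3, at -1.04 (SE 0.076, adjusted p = 0.00596). Stat2 read -1.14 and 0.07 in EV-50 and -1.22 and -1.01 in shGR-19. The median of these 11 was -0.06.

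Downstream, the targets of ISGF3 were the list with the most calls. Of 24 genes 19 were kept, 18 were below 0 in the value table and 13 were called lower, with none higher and a median of -1.32 (-0.89 in the scanner files, where none was called). Oas1a, an oligoadenylate synthetase, was lower by 5.78 on the log2 scale (SE 0.17, adjusted p = 0.00242, limma). Rsad2, which encodes viperin, differed by -3.75, Oasl2, an oligoadenylate synthetase-like protein, by -2.74 and Mx2, an antiviral GTPase, by -2.34. Oas1a read -3.63 and 0.79 in EV-50 and -3.88 and -5.05 in shGR-19. Again the array labelled EV-50 replicate 2 was the high one. Between the replicate 1 arrays the list's median was -0.24, and between the replicate 2 arrays -1.54.

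Of 18 targets of IRF1 and interferon gamma 15 were kept and 4 were called lower, with a median of -0.62, although both probes of Irf1 were not called. They were Gbp3, a guanylate-binding GTPase, at -2.45, the immunoproteasome subunits Psmb9 at -1.84 and Psmb8 at -1.80, and Casp1, the inflammasome protease, at -1.10. Psmb8 read 1.47 and 3.93 in EV-50 and 1.21 and 2.07 in shGR-19. The median of these 15 in the scanner files was -0.02 between the replicate 1 arrays and -0.76 between the replicate 2 arrays. Among 12 inhibitors of the pathway and partners of IRF proteins, all kept, the 2 calls went in opposite directions. Usp18, which removes ISG15 from proteins and is itself interferon-induced, was lower by 1.42 (SE 0.058, adjusted p = 0.00317), and Socs1, an inhibitor of JAK kinases, was higher by 1.49 (SE 0.089, adjusted p = 0.00469, limma). Socs1 read 0.33 and 0.02 in EV-50 and 0.43 and 1.33 in shGR-19, so that the array labelled shGR-19 replicate 2 was high. The median of these 12 was 0.03.

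**Figure D3:**
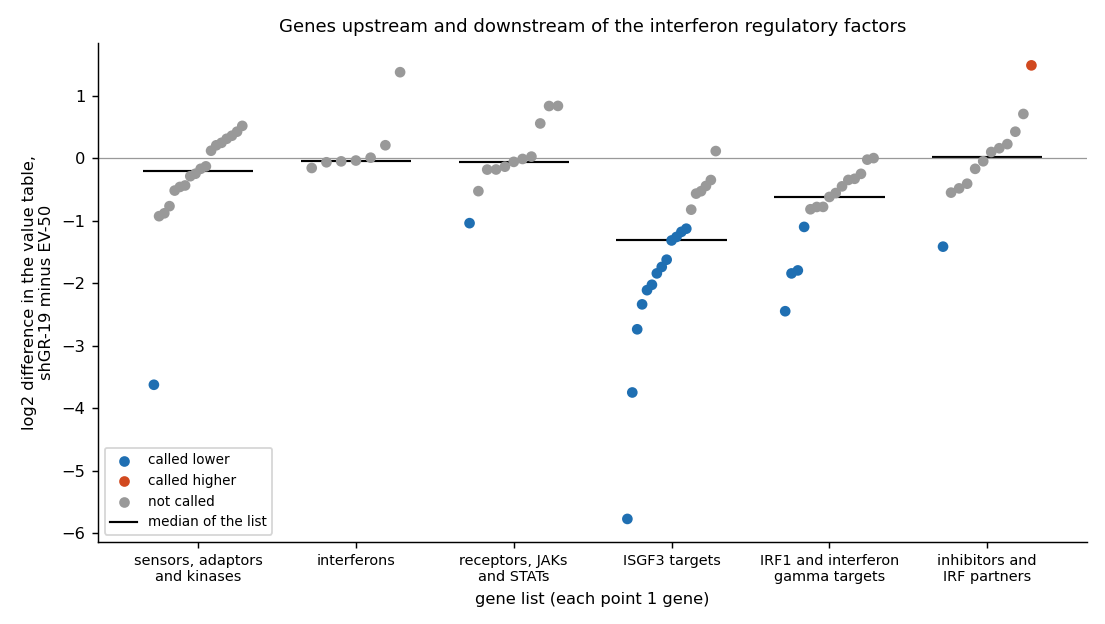
Log2 difference of shGR-19 minus EV-50 in the value table for each kept gene of the 6 lists around the interferon regulatory factors. Points are genes, blue where called lower, red where called higher and grey otherwise, and black lines are list medians. The ISGF3 targets had 13 of 19 genes called lower and a median of -1.32. The interferon genes, which had low signal, had none called.

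The genes whose scanner profile was most like that of Irf7 and Irf9 were found as the smallest Euclidean distance between mean-centred log2 values over the 4 arrays, among 16754 genes. This is a description of 4 arrays, and each profile is led by EV-50 replicate 2. For Irf7 they were Tnfrsf18, the receptor GITR, at a distance of 0.799, Slc39a4, a zinc importer, at 0.815, Niacr1, the nicotinic acid receptor, at 0.887, Pglyrp2, a peptidoglycan recognition protein, at 0.907, and Mx2 at 0.974. These 5 genes differed by -2.34 to -2.99 in the value table and were called lower. For Irf9 the closest was Psmb8 at 0.232, followed by the unnamed transcripts ENSMUST00000070019 at 0.249 and AK045058 at 0.272, Palmd at 0.281 and Dok2, an adaptor protein, at 0.288. Psmb8, Palmd and Dok2 were called lower in the value table, at -1.80, -1.40 and -1.38. AK045058 differed there by -0.03, so that likeness over the scanner arrays did not carry over to the table for each gene.

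Promoter sequence was read for all 8 genes from RefSeq (GRCm38.p6), as windows of 300 bases from 250 before to 50 after each annotated start, with 11 windows for the 8 genes and 32851 for all genes. Matches were counted on both strands. The interferon-stimulated response element, GAAANNGAAA, was in 3.44% of all windows and, among the members, in that of Irf2 alone. The gamma-activated site, TTCNNNGAA, which reads the same on both strands, was in 8.30% of all windows and in 1 window each of Irf1, Irf2 and Irf8. In the stretches below, 5′ to 3′ on the strand of the gene, capitals mark these matches, which do not overlap. Upstream stretches of Irf7 and Irf9 are shown beside them because these genes were called lower and their windows held neither motif. The stretch of Irf7 covers only -250 to -76, as it stops before the outermost annotated end of the gene. That of Irf9 covers -250 to -1 of 1 of its 2 windows.
Irf1 (chr11:53769899-53769958, plus strand): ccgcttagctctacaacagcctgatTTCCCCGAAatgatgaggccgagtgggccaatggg
Irf2 (chr8:46739495-46739554, plus strand): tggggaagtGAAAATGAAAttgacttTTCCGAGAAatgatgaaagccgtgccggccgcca
Irf8 (chr8:120736168-120736227, plus strand): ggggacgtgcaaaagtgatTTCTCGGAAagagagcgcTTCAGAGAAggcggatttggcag
Irf7 (chr7:141266500-141266674, minus strand): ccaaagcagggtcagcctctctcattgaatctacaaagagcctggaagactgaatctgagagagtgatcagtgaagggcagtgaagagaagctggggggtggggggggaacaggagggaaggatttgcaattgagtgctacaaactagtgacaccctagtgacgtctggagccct
Irf9 (chr14:55603735-55603984, plus strand): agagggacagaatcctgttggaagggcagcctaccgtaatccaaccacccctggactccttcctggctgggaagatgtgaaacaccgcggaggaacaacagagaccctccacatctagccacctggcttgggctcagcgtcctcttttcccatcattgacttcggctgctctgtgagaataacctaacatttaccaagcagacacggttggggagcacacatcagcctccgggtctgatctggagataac
Counted from the annotated start, the gamma-activated site of Irf1 lay at -90 to -82, those of Irf8 at -171 to -163 and -153 to -145, and that of Irf2 at -224 to -216, behind its response element at -241 to -232. The absence of a match says only that these letters are not in the window. A further pair of motifs was counted because the study's model links unliganded GR to the ETS factor GABP. The ETS core CGGAAG was in 16.9% of all windows and in those of Irf2, Irf3 and Irf5, with 2 matches for Irf3. The half-site of GR, AGAACA, was in 18.97% of all windows and among the members only in that of Irf2, on the minus strand at 44 to 49. Irf4, Irf7 and Irf9 held none of the 4 motifs.

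**Figure D4:**
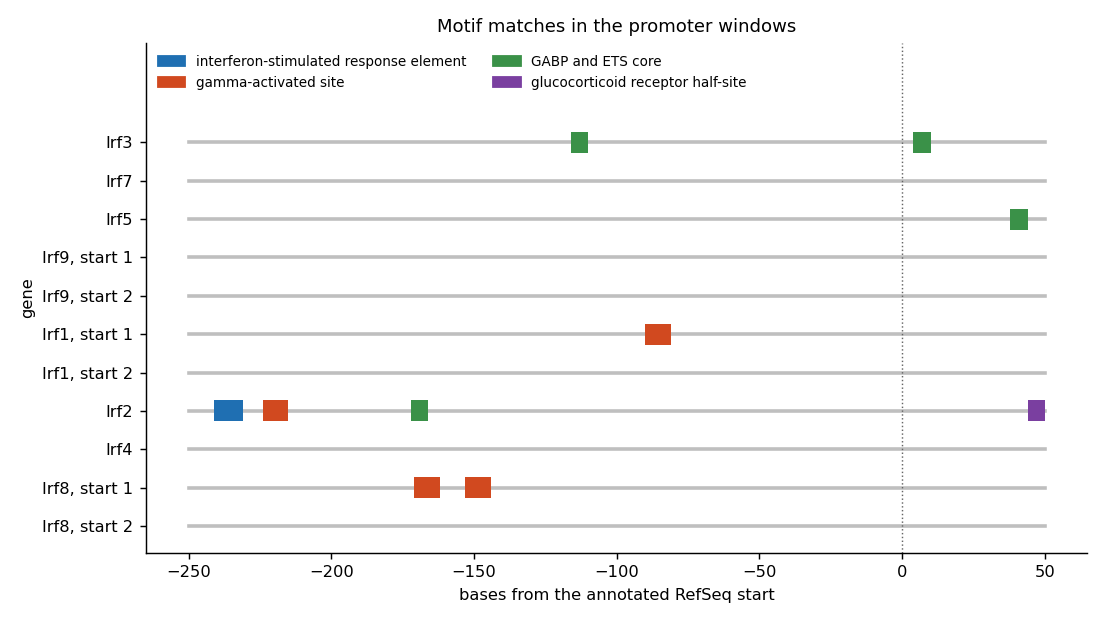
Positions of 4 motifs in the 11 promoter windows of the 8 genes. The horizontal axis is bases from the annotated RefSeq start, each grey line is 1 window and each coloured bar 1 match; Irf2 held all 4 motifs, and the windows of Irf4, Irf7 and Irf9 held none.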

How the data were processed

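RNA of EV-50 and shGR-19 was measured on Agilent Whole Mouse Genome arrays, 2 per line, grouped by their labels. The authors deposited spot intensities, background-subtracted by Agilent Feature Extraction 10.5.1.1 with default one-colour settings (version from the submitters' processing notes). The authors' GeneSpring table, deposited beside them, holds log2 values centred on each probe's median, so that absolute levels are lost.

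From the intensities, control spots and outlier-flagged spots (74 to 139 per array) were left out, spots of 1 probe were averaged, and the 75th percentile of each array (516 to 584) was subtracted on the log2 scale. No spot was saturated. Each source was fitted with limma 3.58.1 (R 4.3.3), lmFit and eBayes, on the 24436 probes that either line had well above background on both of its arrays and that had no outlier-flagged gap, with Benjamini-Hochberg adjustment over these probes. A call needs more than 2-fold and an adjusted p below 0.01. The methods of the study name this fold and p but no adjustment. With 2 arrays per line the smallest exact permutation p is 0.333, and no such test was run. Precision is limited by the number of arrays. The fit was tested on simulated data. The replicate numbers share only a number, as no label says that they mark a shared preparation.

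The genes and the lists were chosen with earlier results of these data known. Named were all member probes, Nr3c1, up to 4 called genes per list with the largest differences in the value table, and for Irf7 and Irf9 the 5 genes most alike. Lyz2, Batf3, Ptprc, Itgam, Emr1 and Ikzf1 were named after their values were seen. Of a list gene with several probes the brightest kept one was used. The ratio for Irf5 sets the mean of EV-50 against, per array, the higher of the probe's own value and the lowest signal well above background. The probe's own value was the higher on both shGR-19 arrays, so this is the ratio of the measured means. Alternatives were normexp (offset 50), quantile normalization, the 75th percentile over probes detected on all arrays, other filters, a trended and robust prior (statmod 1.5.0), an adjusted p below 0.05, the replicate number as a block, gene means over probes, and each array left out, where the spread came from the line that still had both arrays.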

Additional observations from a re-analysis of the deposited data

How the results depend on the processing

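With all probes kept, the value table gave 1 called probe of these genes (Irf7) in place of 3, and 0 pathway genes lower and 0 higher in place of 20 and 1. In that fit 28 of all 41163 probes were called lower and 15 higher. With the replicate number as a block (replicate block) the value table gave 0 called probes and 0 pathway genes in either direction, with an adjusted p of 0.0293 for Irf7, Irf9 and the Irf8 probe (limma). Over all 24436 kept probes the block also gave 0 calls, and 0.0293 was the smallest adjusted p (limma). Same-numbered samples deviated together with a correlation of 0.652 in the scanner files and 0.109 in the value table, and 2 pairs cannot show whether the numbers pair the samples. Leaving out any 1 of the 4 columns lost the calls of these probes and pathway genes, and of every other kept probe. The cause of these losses was not tested. In place of the scanner files, the deposited value table gave 3 called probes against 0. The median of the pathway genes in the value table moved from -0.35 to -0.40 with the mean of a gene's probes, to -0.39 on the columns labelled replicate 1 alone, and between -0.39 and -0.32 with 1 column left out. In the scanner files it ranged from -0.52 to 0.11, reversing to 0.11 without EV-50 replicate 2.

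Reversals otherwise concerned differences that were not called. Without EV-50 replicate 2, the scanner differences became 0.17 for Irf9, 0.39 for the bright probe of Irf1, 0.18 for Irf2 and 0.17 for Irf3 A_51_P485499. Without shGR-19 replicate 1, they became 0.36 for that probe of Irf1 and 0.10 for that of Irf3. Irf1 A_52_P175685 became -0.43 without EV-50 replicate 1, -0.40 without shGR-19 replicate 2 and -0.18 in the value table. On the replicate 1 arrays alone Irf2 was 0.12, Irf3 A_51_P485499 0.039 and Irf3 A_52_P609770 0.0023. Irf3 A_51_P485499 was 0.024 with normexp, and in the value table Irf2 was 0.077 and Irf3 A_52_P609770 0.16. Within the value table, the bright probe of Irf1 was 0.013 on the replicate 2 columns and 0.0032 without shGR-19 replicate 1, and Irf3 A_52_P609770 was -0.032 on the replicate 2 columns. With 1 array left out, the scanner differences ranged from -2.02 to 0.17 for Irf9 A_51_P127367, from -0.64 to 0.39 for Irf1 A_51_P146103, from -0.43 to 0.68 for Irf1 A_52_P175685, from -0.41 to 0.18 for Irf2 and from -0.22 to 0.17 for Irf3 A_51_P485499, and the value table gave -0.055 to 0.0032 for Irf1 A_51_P146103. The directions of Irf7 and of both Irf8 probes held under all alternatives run, from -0.27 to -3.86 for Irf7, from 0.04 to 2.88 for Irf8 A_52_P354823 and from 0.12 to 1.35 for Irf8 A_51_P187253. Dim probes, Irf4, Irf5 and Irf8 above all, are limited by signal over background.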
